A study of Homo sapiens with 12 samples.

Results

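The enzymes and carriers described here take glucose to lactate and through the pentose phosphate pathway. They are 35 genes, chosen by symbol from 17518 genes in the count table: glucose and lactate carriers, hexokinases, phosphofructokinases and the PFKFB enzymes that regulate them, the remaining glycolytic steps, both lactate dehydrogenase subunits, 2 pyruvate dehydrogenase kinases, and 6 enzymes of the pentose phosphate pathway. The rule that chose them also cites HK1 as higher and PGK1 and PKM as lower in SKM-1 with knockdown. The SKM-1 values of these 3 genes are therefore a description and are given with no test, although counts of members include them. The differences of their knockdown effects between the lines are a description too. The rule further cites isozyme choice by line and opposite moves of steps, so p-values for such differences are no support for them. Expression was measured by poly(A) RNA sequencing in 4 groups of 3 libraries: MUTZ-1 cells with an shRNA against NUDT21 (shNUDT21), MUTZ-1 cells with a control shRNA, SKM-1 cells with shNUDT21, and SKM-1 cells with a control shRNA. MUTZ-1 and SKM-1 are human cell lines labelled as myelodysplastic syndrome cells from marrow, and control libraries carry the genotype label WT. NUDT21 encodes the smaller subunit of cleavage factor I, which helps to choose the poly(A) site of a transcript. The labels do not say which vector or hairpin was used, whether the cells of a group were 1 clone or a pool, or whether the 3 libraries came from separate cultures, so each p-value measures only the spread between these libraries, which may be technical. Sample descriptions carry sh1 for all knockdown libraries of both lines and do not explain it. If it marks 1 hairpin, effects of that hairpin and of NUDT21 loss cannot be told apart.

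Libraries held between 15843012 and 18426619 counts. NUDT21 itself had 30.6 to 32.2 FPKM in MUTZ-1 shNUDT21 and 64.8 to 65.8 FPKM in MUTZ-1 control libraries, and 29.4 to 29.8 FPKM in SKM-1 shNUDT21 and 77.3 to 82.3 FPKM in SKM-1 control libraries. It was 2.17-fold lower with shNUDT21 in MUTZ-1 and 2.55-fold lower in SKM-1. All 8 B-lineage markers checked were above 1 FPKM in MUTZ-1 cells, where they summed to 1000 to 1030 FPKM with shNUDT21 and 1090 to 1120 FPKM in controls. In SKM-1 cells all 8 erythroid markers were above 1 FPKM and summed to 3510 to 3860 FPKM with shNUDT21, against 940 to 995 FPKM in controls. The labels name marrow cells of a myeloid disease. Of 8 hematopoietic markers checked, 4 averaged above 1 FPKM in both MUTZ-1 groups and 7 in both SKM-1 groups. They summed to 94.2 to 99.2 FPKM in MUTZ-1 shNUDT21 and 92.5 to 93.4 FPKM in MUTZ-1 control libraries. In SKM-1 they summed to 154 to 161 FPKM with shNUDT21 and 61.6 to 65.2 FPKM in controls. Most of that rise came from LYL1, at 96.5 to 103 FPKM with shNUDT21 and 25.8 to 30.1 FPKM in controls. SPI1, RUNX1, LMO2 and TAL1 were higher too. KIT went the other way, at 1.18 to 1.62 FPKM with shNUDT21 and 9.72 to 10.5 FPKM in controls, and PTPRC was slightly lower. The remaining hematopoietic marker, CD34, stayed at or below 0.00701 FPKM in all 12 libraries. The 8 monocytic markers checked summed to 30.8 to 34.2 FPKM in SKM-1 shNUDT21 against 9.75 to 11.3 FPKM in SKM-1 control libraries, mostly from LYZ and CD33, and to 2.67 to 3.03 FPKM in MUTZ-1 shNUDT21 against 2.75 to 4.35 FPKM in MUTZ-1 control libraries. Of these 8, MPO, CD14, CSF1R and FCGR1A stayed below 1 FPKM in all 12 libraries. The 5 epithelial markers checked summed in SKM-1 to 461 to 474 FPKM with shNUDT21 and 232 to 237 FPKM in controls. In both SKM-1 groups 4 of them averaged above 1 FPKM, while CDH1 stayed at or below 0.0371 FPKM. These marker sums moved with the shRNA group in SKM-1, where 84.4% of all genes tested changed, and their part in the results below was not tested. The effect of the shRNA and any other difference between the cells of the 2 SKM-1 groups cannot be told apart. In bulk RNA, a change in the make-up of the cells and a change in RNA per cell cannot be told apart either.

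Glycolysis splits glucose into pyruvate. Hexokinase traps the sugar in the cell, phosphofructokinase commits it to breakdown, and phosphoglycerate kinase and pyruvate kinase make ATP. Lactate dehydrogenase turns pyruvate into lactate and regenerates NAD+, while pyruvate dehydrogenase kinases keep pyruvate out of the mitochondrial oxidation route. The pentose phosphate pathway branches off at glucose 6-phosphate: its oxidative arm yields NADPH and its non-oxidative arm exchanges sugars between ribose 5-phosphate and glycolysis. Several steps have isozymes that are encoded by separate genes and differ in tissue and regulation. Mature red cells have no mitochondria and live on glycolysis alone.

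Levels are given in FPKM, which the authors computed from the counts, the library total and 1 fixed length per gene. Genes can thus be set beside each other, but isozyme shares and step sums depend on those lengths. NUDT21 helps to choose poly(A) sites, so transcript lengths may differ between the shRNA groups. Counts and FPKM do not tell such a difference apart from a change in transcript number, and it was not tested. FPKM follow the library totals, whereas fold changes come from counts scaled by TMM, so the 2 can differ by a few percent. HK3, a hexokinase of white blood cells, stayed at or below 0.0318 FPKM in all libraries; it was the single member that did not pass the filter on low counts, and 34 of 35 were tested. GAPDH, which oxidises glyceraldehyde 3-phosphate, had the highest level in all groups, at 3470 ± 53.9 FPKM in MUTZ-1 shNUDT21, 3510 ± 62.3 FPKM in MUTZ-1 control, 2030 ± 2.62 FPKM in SKM-1 shNUDT21 and 2430 ± 32.6 FPKM in SKM-1 control cells (SD, n = 3 each). The summed lactate dehydrogenases came next, with group means of 1010 to 1540 FPKM, and then the summed enolases, with 780 to 992 FPKM. SLC2A1 and SLC2A3 together, the glucose carriers among the members, summed to 26.3 FPKM in MUTZ-1 shNUDT21, 34 FPKM in MUTZ-1 control, 80.7 FPKM in SKM-1 shNUDT21 and 48.0 FPKM in SKM-1 control cells. ALDOA, the aldolase of muscle and red cells, was counted at only 1.6 FPKM in MUTZ-1 shNUDT21, 1.89 FPKM in MUTZ-1 control, 3.98 FPKM in SKM-1 shNUDT21 and 4.55 FPKM in SKM-1 control cells, and in the GENCODE v29 annotation 42.3% of its exonic bases also belong to another gene on the same strand. How the authors' counting treated reads in such overlaps is not given in the sources used here, so no statement is made on ALDOA beyond its counted level. The same holds in part for LDHB, of which 33.4% of exonic bases are shared with another gene on that strand.

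**Figure D1:**
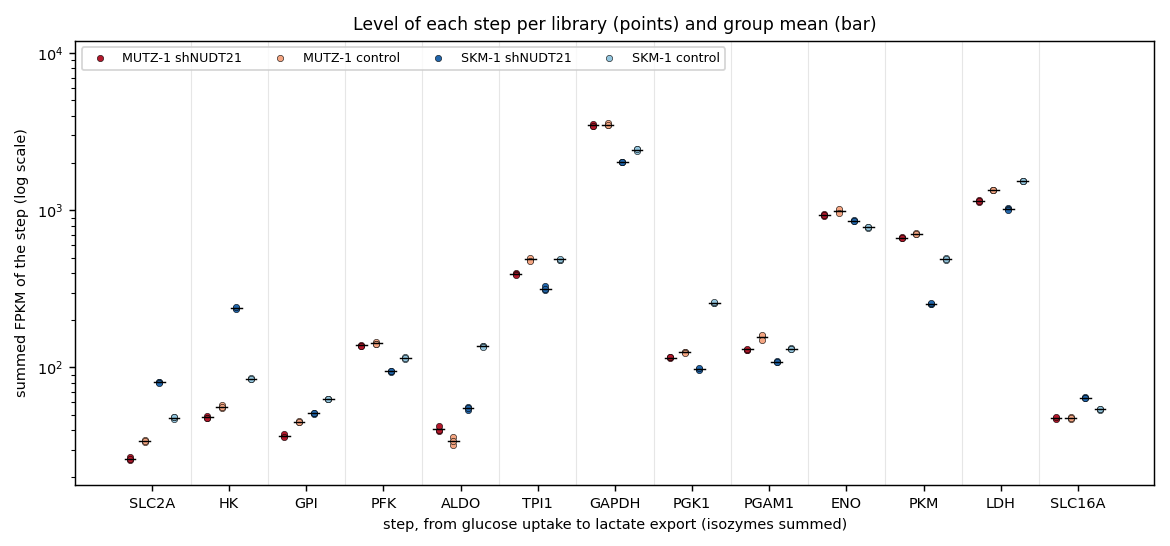
Summed FPKM of the isozymes of each step (log axis) in every library, from glucose uptake to lactate export; points are libraries and bars are group means. Of the 4 groups, SKM-1 shNUDT21 sits highest at HK (234 to 241 FPKM) and lowest at PKM (252 to 257 FPKM).

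Knockdown was accompanied by small changes in MUTZ-1 and by large changes in both directions in SKM-1. Changed means an adjusted p below 0.05 in edgeR's quasi-likelihood test, adjusted by Benjamini-Hochberg over the 13625 genes tested. In MUTZ-1, 7 of 34 members were higher and 19 lower with shNUDT21 than in control cells, where 24.4% of all genes tested were higher and 24.6% lower (49.0% in either direction). Of these, 1 was at least 1.5-fold higher and 1 at least 1.5-fold lower, against 6.69% and 2.85% of all genes tested (9.53% in either direction). In SKM-1, 11 members were higher and 17 lower with shNUDT21, against 42.1% and 42.3% of all genes tested; 6 were at least 1.5-fold higher and 7 at least 1.5-fold lower, against 23.9% and 29.6% (53.6% in either direction). The median log2 fold change of the members was −0.10 in MUTZ-1 and −0.13 in SKM-1, and 0.00 for all genes tested in both lines. The median size of a change, whatever its sign, was 0.22 log2 units for members and 0.20 for all genes in MUTZ-1, and 0.49 for members and 0.69 for all genes in SKM-1. In MUTZ-1 the count of lower members depended on the scaling of the libraries: it was 14 with library totals in place of TMM, while GAPDH, LDHB, PGLS, TKT and TALDO1 lost their calls.

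**Figure D2:**
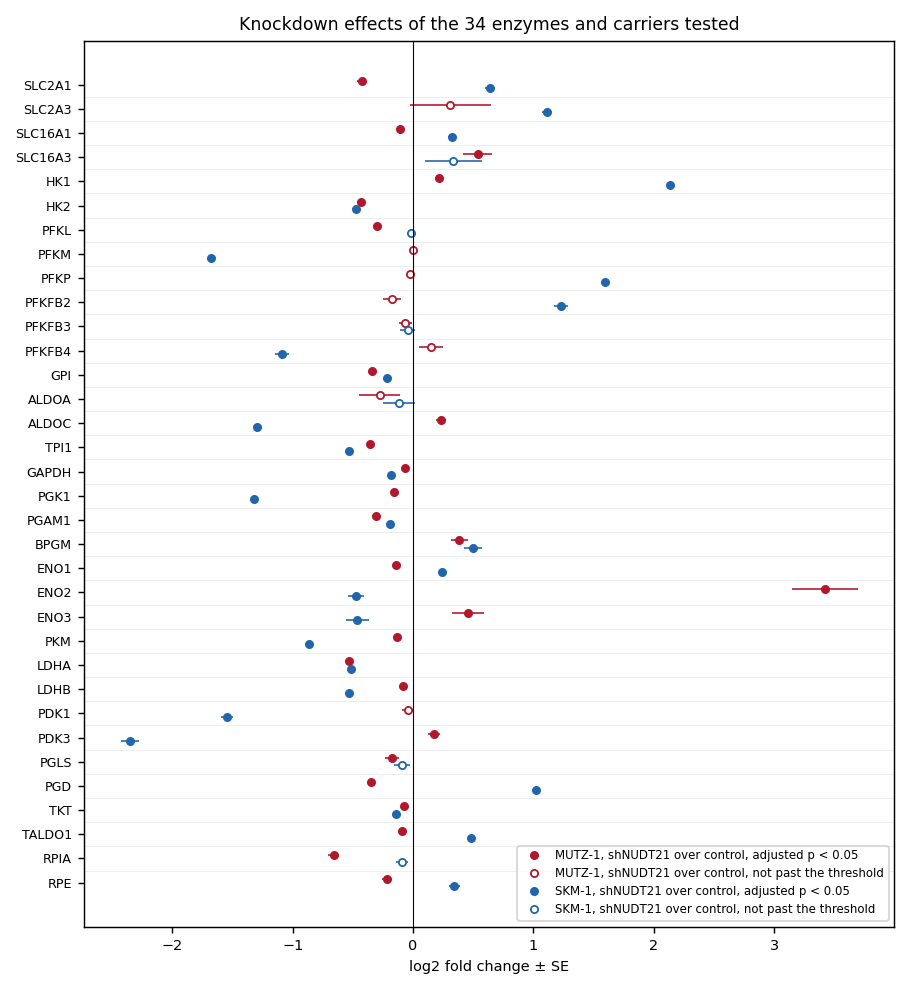
log2 fold change, shNUDT21 over control, with its standard error for the 34 members tested, in MUTZ-1 (red) and SKM-1 (blue); filled points passed an adjusted p of 0.05. Apart from ENO2, MUTZ-1 points lie between −0.66 and 0.54, while SKM-1 points run between −2.35 (PDK3) and 2.14 (HK1).

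The carriers SLC2A1 and SLC16A1 were lower in MUTZ-1, but higher in SKM-1, with shNUDT21. SLC2A1, the widely expressed glucose transporter GLUT1, had 25.8, 26.5 and 25.9 FPKM in MUTZ-1 shNUDT21 libraries, against 33.6, 34.4 and 33.7 FPKM in MUTZ-1 control libraries. It had 43.1, 45.4 and 45.3 FPKM in SKM-1 shNUDT21 libraries, against 29.5, 30.0 and 31.6 FPKM in SKM-1 control libraries. The groups did not overlap in either line: SLC2A1 fell 1.34-fold in MUTZ-1 (log2 fold change −0.43 ± 0.037, SE; edgeR adjusted p = 4.51e-23) and rose 1.55-fold in SKM-1 (0.64 ± 0.035; adjusted p = 2.26e-44). SLC2A3, the high-affinity transporter GLUT3, had 37.6, 35.9 and 34.6 FPKM in SKM-1 shNUDT21 libraries, against 17.3, 18.7 and 16.9 FPKM in SKM-1 control libraries. In MUTZ-1 it was barely counted, at 0.182, 0.247 and 0.185 FPKM with shNUDT21 and 0.0994, 0.165 and 0.213 FPKM in controls. It rose 2.16-fold in SKM-1 and was not called in MUTZ-1, where its 95% interval ran from −0.35 to 0.97 log2 units. SLC2A14 is a near-identical copy of SLC2A3, and reads shared by both genes could have been split between them. SLC2A3 made up 44.7 ± 1.72% of the FPKM of both transporters in SKM-1 shNUDT21 and 36.7 ± 1.79% in SKM-1 control cells, but 0.779 ± 0.126% in MUTZ-1 shNUDT21 and 0.466 ± 0.167% in MUTZ-1 control cells.

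SLC16A1, the monocarboxylate transporter MCT1 that moves lactate and pyruvate, had 43.2, 41.8 and 43.4 FPKM in MUTZ-1 shNUDT21 and 45.1, 44.1 and 45.0 FPKM in MUTZ-1 control libraries. In SKM-1 its levels were 63.7, 63.3 and 63.3 FPKM with shNUDT21 and 53.4, 54.2 and 53.8 FPKM in controls. It rose by 0.32 log2 units in SKM-1; its 1.08-fold fall in MUTZ-1 was no longer called without shNUDT21 library 2, at −0.07 log2 units. SLC16A3, the exporter MCT4, was low everywhere, averaging 4.76 ± 0.29 FPKM in MUTZ-1 shNUDT21 and 3.17 ± 0.266 FPKM in MUTZ-1 control cells, a called difference of 0.54 log2 units. In SKM-1 it averaged 0.588 FPKM with shNUDT21 and 0.493 FPKM in controls and was not called; without SKM-1 shNUDT21 library 3 it was called higher, at 0.56 log2 units.

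At the hexokinase step HK1 rose and HK2 fell in both lines. HK1, the hexokinase of most tissues and of red cells, had 217, 214 and 217 FPKM in SKM-1 shNUDT21 libraries, against 53.2, 52.5 and 50.2 FPKM in SKM-1 control libraries. In MUTZ-1 it had 14.1, 13.6 and 14.2 FPKM with shNUDT21, against 11.6 FPKM in each control library. HK1 was 4.39-fold higher in SKM-1 with shNUDT21 (2.14 ± 0.023) and rose 1.16-fold in MUTZ-1 (0.22 ± 0.037; edgeR adjusted p = 8.59e-08). HK2, the insulin- and hypoxia-responsive isozyme that many tumours express, had 23.1, 20.3 and 23.8 FPKM in SKM-1 shNUDT21 libraries, against 31.7, 32.7 and 34.2 FPKM in SKM-1 control libraries. Its MUTZ-1 levels were 34.9, 33.8 and 33.7 FPKM with shNUDT21 and 45.9, 43.8 and 44.3 FPKM in controls. HK2 fell in both lines without overlap, 1.39-fold in SKM-1 and 1.35-fold in MUTZ-1. The difference between those 2 effects was 0.04 log2 units, with a 95% interval of −0.06 to 0.13, and was not called with TMM, while it was called at 0.17 log2 units with library totals, at 0.10 without MUTZ-1 control library 1 and at 0.11 without SKM-1 shNUDT21 library 1.

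HK1 held 90.6 ± 0.643% of hexokinase FPKM in SKM-1 shNUDT21 cells and 61.2 ± 1.58% in SKM-1 control cells. In MUTZ-1, HK2 was the larger part: the share of HK1 was 29 ± 0.493% with shNUDT21 and 20.6 ± 0.349% in controls. Shares did not overlap between groups within either line; an exact permutation test of 3 against 3 libraries cannot give a p below 0.10, and it gave 0.10 in MUTZ-1. The summed hexokinase level was 238 ± 3.49 FPKM in SKM-1 shNUDT21 against 84.9 ± 0.472 FPKM in SKM-1 control cells, a ratio of 2.81. It was 48.1 ± 0.778 FPKM in MUTZ-1 shNUDT21 against 56.3 ± 1.08 FPKM in MUTZ-1 control cells, so the step total was lower with shNUDT21 in MUTZ-1 although HK1 was higher.

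**Figure D3:**
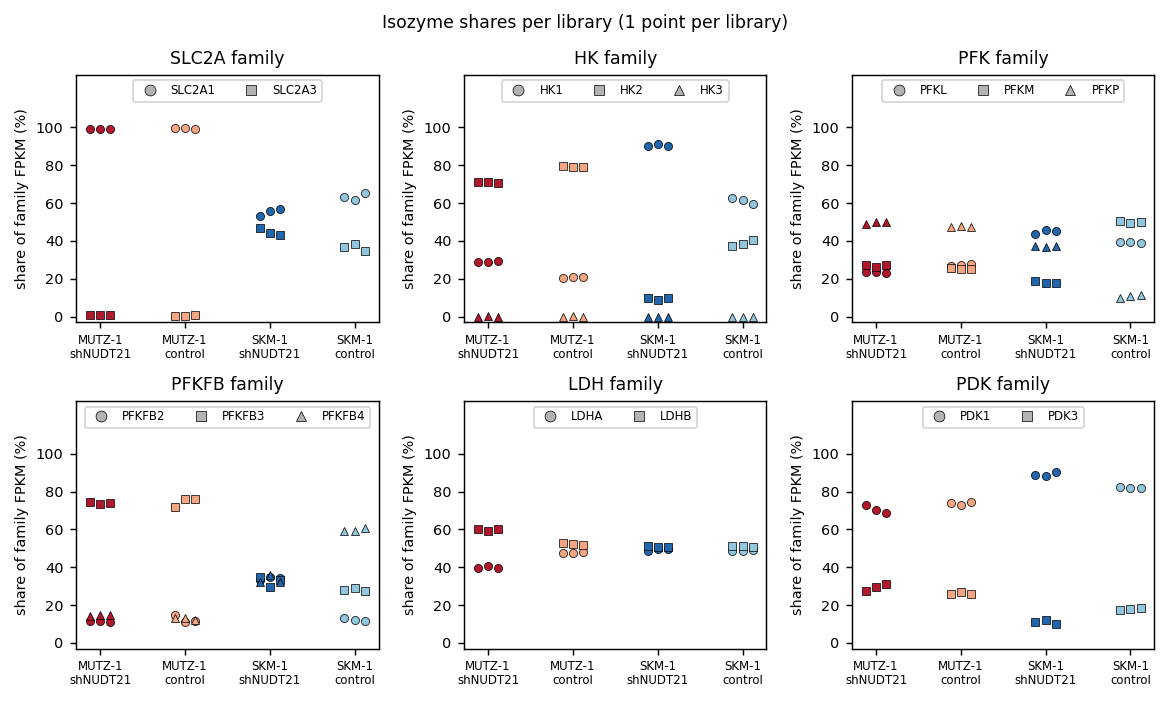
Share of each isozyme (percent of the FPKM of its family; 1 point per library) for 6 families in the 4 groups. HK1 makes up 90.1 to 91.3% of hexokinase FPKM in SKM-1 shNUDT21 libraries and 59.5 to 62.6% in SKM-1 control libraries; PFKM holds 18.1% on average in SKM-1 shNUDT21 and 50.1% in SKM-1 control libraries.

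Among phosphofructokinase subunits, PFKM fell and PFKP rose in SKM-1, and neither was called in MUTZ-1. PFKM, named for muscle, had 17.5, 16.9 and 16.9 FPKM in SKM-1 shNUDT21 libraries, against 59.3, 56.5 and 57.6 FPKM in SKM-1 control libraries. PFKP, named for platelets, had 35.2, 34.7 and 35.3 FPKM in SKM-1 shNUDT21 libraries, against 11.4, 12.6 and 12.8 FPKM in SKM-1 control libraries. PFKL, named for liver, had 41.2, 43.2 and 42.7 FPKM in SKM-1 shNUDT21 libraries and 46.2, 45.2 and 44.4 FPKM in SKM-1 control libraries. PFKM fell 3.19-fold (−1.68 ± 0.032; edgeR adjusted p = 3.69e-120) and PFKP rose 3.02-fold (1.60 ± 0.039; adjusted p = 7.49e-99), while PFKL was not called with TMM scaling (−0.01, 95% interval −0.07 to 0.05) and was called lower with library totals (−0.10). PFKP made up 37.1 ± 0.479% of the family in SKM-1 shNUDT21 against 10.6 ± 0.793% in SKM-1 control cells, and PFKM 18.1 ± 0.449% against 50.1 ± 0.655%. The family sum was 94.5 ± 0.612 FPKM with shNUDT21 and 115 ± 1.37 FPKM in controls, so the total differed less than either subunit.

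In MUTZ-1, PFKP led the family in both groups. It had 68.1, 69.3 and 68.7 FPKM with shNUDT21 and 68.8, 67.2 and 66.9 FPKM in control libraries, and PFKM had 37.8, 36.4 and 37.4 FPKM with shNUDT21 and 37.5, 35.3 and 35.1 FPKM in control libraries. The groups overlapped for both genes and neither was called; 95% intervals were −0.08 to 0.03 log2 units for PFKP and −0.06 to 0.06 for PFKM. PFKL averaged 32.4 ± 0.541 FPKM with shNUDT21 against 38.6 ± 0.448 FPKM in control cells and fell 1.23-fold. On the FPKM scale PFKM thus stood above PFKL in MUTZ-1 shNUDT21 cells, and PFKL above PFKM in MUTZ-1 control cells.

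The PFKFB enzymes make and break fructose 2,6-bisphosphate, the strongest activator of phosphofructokinase. PFKFB4 had 6.55, 7.0 and 6.57 FPKM in SKM-1 shNUDT21 libraries, against 14.7, 14.7 and 15.9 FPKM in SKM-1 control libraries, and fell 2.13-fold. PFKFB2 averaged 6.86 ± 0.0709 FPKM in SKM-1 shNUDT21 and 3.09 ± 0.146 FPKM in SKM-1 control cells and rose 2.35-fold. PFKFB3 had 7.08, 5.78 and 6.74 FPKM in SKM-1 shNUDT21 libraries and 6.97, 7.27 and 7.10 FPKM in SKM-1 control libraries, with overlap and no call. On the FPKM scale all 3 genes thus stood at nearly the same level in SKM-1 shNUDT21 cells, with shares of 34.2% for PFKFB2, 32.5% for PFKFB3 and 33.4% for PFKFB4. PFKFB4 had held 59.6% in SKM-1 control cells. These shares depend on 1 fixed length per gene, 11697 bases for PFKFB2, 5129 for PFKFB3 and 5700 for PFKFB4. Reads in the SKM-1 shNUDT21 libraries together were 3932 for PFKFB2, 1639 for PFKFB3 and 1873 for PFKFB4. In MUTZ-1 none of the 3 was called, although PFKFB2 was called lower without control library 2 (−0.21) or control library 3 (−0.20), and PFKFB4 higher with limma on log2(FPKM + 1) (0.12) or log2(FPKM + 0.1) (0.19). PFKFB3 led there with 9.21, 9.03 and 9.13 FPKM in shNUDT21 libraries and 8.69, 9.89 and 9.12 FPKM in control libraries.

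Among the other upper steps, ALDOC, an aldolase best known from brain, had 49.3, 52.1 and 51.3 FPKM in SKM-1 shNUDT21 libraries, against 133, 133 and 131 FPKM in SKM-1 control libraries. It had 37.9, 38.3 and 41.1 FPKM in MUTZ-1 shNUDT21 libraries, against 30.6, 34 and 32.1 FPKM in MUTZ-1 control libraries. ALDOC fell 2.46-fold in SKM-1 (−1.30 ± 0.035; edgeR adjusted p = 1.15e-91) and rose 1.17-fold in MUTZ-1 (0.23 ± 0.044; adjusted p = 1.74e-06). GPI, which isomerises glucose 6-phosphate, and TPI1, which interconverts the triose phosphates, fell in both lines. GPI was 1.27-fold lower in MUTZ-1 and 1.17-fold lower in SKM-1, and TPI1 was 1.28-fold lower in MUTZ-1 and 1.45-fold lower in SKM-1. TPI1 averaged 392 ± 4.33 FPKM in MUTZ-1 shNUDT21 against 487 ± 12.1 FPKM in MUTZ-1 control cells, and 318 ± 9.42 FPKM in SKM-1 shNUDT21 against 487 ± 4.01 FPKM in SKM-1 control cells.

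In the lower, ATP-yielding part of glycolysis, 6 of 8 genes fell and 2 rose in SKM-1, while 5 fell and 3 rose in MUTZ-1. Of all genes tested, 42.3% fell and 42.1% rose in SKM-1, and 24.6% fell and 24.4% rose in MUTZ-1. PGK1, the widely expressed phosphoglycerate kinase, had 97.3, 96.2 and 99.8 FPKM in SKM-1 shNUDT21 libraries, against 258, 256 and 262 FPKM in SKM-1 control libraries. In MUTZ-1 it had 115, 116 and 116 FPKM with shNUDT21, against 126, 126 and 123 FPKM in control libraries. Both pairs of groups were apart, by 2.5-fold in SKM-1 (−1.32 ± 0.02) and by 1.12-fold in MUTZ-1 (−0.16 ± 0.021; edgeR adjusted p = 2.95e-12). PKM, the pyruvate kinase of most tissues other than liver and red cells, had 252, 254 and 257 FPKM in SKM-1 shNUDT21 libraries, against 498, 482 and 488 FPKM in SKM-1 control libraries. Its MUTZ-1 levels were 664, 678 and 662 FPKM with shNUDT21 and 708, 719 and 702 FPKM in controls. PKM was 1.82-fold lower in SKM-1 with shNUDT21 (−0.86 ± 0.018) and fell 1.10-fold in MUTZ-1 (−0.13 ± 0.017; edgeR adjusted p = 4.25e-12). The counts are per gene and do not tell the M1 and M2 splice forms of PKM apart.

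The steps on either side moved less. GAPDH fell 1.14-fold in SKM-1; in MUTZ-1 its groups overlapped, and a 1.05-fold fall was called with TMM scaling and not with library totals. That call was also lost without MUTZ-1 control library 2 or 3, or shNUDT21 library 1 or 3, at −0.04 to −0.03 log2 units. PGAM1, phosphoglycerate mutase, fell 1.24-fold in MUTZ-1 and 1.14-fold in SKM-1. The GENCODE v29 annotation names 62 pseudogene copies of GAPDH and 13 of PGAM1, so their levels are uncertain by whatever reads the counting assigned to copies. BPGM, which makes the 2,3-bisphosphoglycerate of red cells, had 10.5, 10.6 and 9.61 FPKM in SKM-1 shNUDT21 libraries, against 7.77, 7.84 and 7.38 FPKM in SKM-1 control libraries. It had 13.7, 13.9 and 12.5 FPKM in MUTZ-1 shNUDT21 libraries, against 10.0, 10.3 and 9.38 FPKM in MUTZ-1 control libraries. BPGM rose in both lines without overlap, 1.41-fold in SKM-1 and 1.31-fold in MUTZ-1; with HK1 it was 1 of the 2 members called higher in both.

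ENO1, the general enolase, had 939, 918 and 926 FPKM in MUTZ-1 shNUDT21 libraries, against 994, 1020 and 953 FPKM in MUTZ-1 control libraries. Its SKM-1 levels were 830, 843 and 824 FPKM with shNUDT21, against 744, 736 and 750 FPKM in controls. It fell 1.10-fold in MUTZ-1 and rose 1.18-fold in SKM-1. ENO2, the neuronal enolase, had 1.85, 1.10 and 1.65 FPKM in MUTZ-1 shNUDT21 libraries, against 0.142, 0.0749 and 0.189 FPKM in MUTZ-1 control libraries. In SKM-1 it had 15, 16.1 and 16.8 FPKM with shNUDT21, against 23, 23.9 and 23.5 FPKM in controls. The MUTZ-1 rise was 10.7-fold in the fit (3.42 ± 0.271; edgeR adjusted p = 6.12e-26), but it started from 17 reads in all 3 control libraries together and reached 177 reads with shNUDT21, while ENO1 had at least 918 FPKM in the same libraries. ENO3, the muscle enolase, averaged 4.46 ± 0.42 FPKM in MUTZ-1 shNUDT21 against 3.14 ± 0.31 FPKM in MUTZ-1 control cells, and 9.05 ± 0.654 FPKM in SKM-1 shNUDT21 against 13.2 ± 0.793 FPKM in SKM-1 control cells. ENO2 and ENO3 thus rose in MUTZ-1 and fell in SKM-1, the reverse of ENO1.

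The 4 members that act on the fate of pyruvate, LDHA, LDHB, PDK1 and PDK3, fell in SKM-1, where 42.3% of all genes tested were lower. Genes of the same branch outside the members moved both ways there: DLAT, DLD, MPC1, MPC2 and PDK4 were called higher, PDK2, PDP1, PDP2, PDPR and PDHB lower, and PDHA1 and PDHX were not called. LDHA, whose product favours lactate formation, had 501, 502 and 495 FPKM in SKM-1 shNUDT21 libraries, against 752, 749 and 758 FPKM in SKM-1 control libraries. In MUTZ-1 it had 460, 462 and 454 FPKM with shNUDT21, against 639, 642 and 642 FPKM in control libraries. LDHA fell in both lines, 1.43-fold in SKM-1 (−0.51 ± 0.018; edgeR adjusted p = 1.41e-72) and 1.44-fold in MUTZ-1 (−0.53 ± 0.018; adjusted p = 5.28e-73). The difference of the 2 effects was −0.02 log2 units with a 95% interval of −0.07 to 0.03, although with library totals it was called at 0.11. LDHB, the heart subunit, had 525, 515 and 505 FPKM in SKM-1 shNUDT21 libraries, against 792, 786 and 785 FPKM in SKM-1 control libraries, and fell 1.45-fold. In MUTZ-1 it had 698, 672 and 690 FPKM with shNUDT21 and 709, 710 and 695 FPKM in controls, which overlapped, and its fall of 1.06-fold was not called with library totals or without shNUDT21 library 2 (−0.04). The share of LDHA in lactate dehydrogenase was 40.0 ± 0.618% in MUTZ-1 shNUDT21 against 47.6 ± 0.313% in MUTZ-1 control cells, but 49.2 ± 0.389% in SKM-1 shNUDT21 and 48.9 ± 0.229% in SKM-1 control cells (exact permutation p = 0.30).

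PDK1, a pyruvate dehydrogenase kinase induced by hypoxia, had 6.28, 5.87 and 5.71 FPKM in SKM-1 shNUDT21 libraries, against 18.9, 18.8 and 17.5 FPKM in SKM-1 control libraries. It had 11.9, 11.1 and 10.4 FPKM in MUTZ-1 shNUDT21 libraries and 11.6, 10.6 and 11.2 FPKM in MUTZ-1 control libraries. PDK1 fell 2.92-fold in SKM-1 (−1.54 ± 0.05; edgeR adjusted p = 3.51e-76) and was not called in MUTZ-1, where the groups overlapped. PDK3 averaged 0.741 ± 0.1 FPKM in SKM-1 shNUDT21 against 4.01 ± 0.129 FPKM in SKM-1 control cells, 5.1-fold lower. It averaged 4.62 ± 0.12 FPKM in MUTZ-1 shNUDT21 against 3.96 ± 0.101 FPKM in MUTZ-1 control cells, 1.13-fold higher. Their sum was 6.69 ± 0.372 FPKM in SKM-1 shNUDT21 and 22.4 ± 0.87 FPKM in SKM-1 control cells. Of the kinases of this family that are not among the members, PDK2 stood at 0.517 ± 0.0475 FPKM in SKM-1 shNUDT21 against 12.5 ± 0.187 FPKM in SKM-1 control cells. PDK4 went the other way, at 1.77 ± 0.17 FPKM in SKM-1 shNUDT21 against 1.27 ± 0.163 FPKM in SKM-1 control cells, 1.47-fold higher (edgeR adjusted p = 0.00337).

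The pentose phosphate enzymes among the 35 genes fell in MUTZ-1, 6 of 6, and were split in SKM-1, where 3 rose, 1 fell and 2 were not called. Of all genes tested, 24.6% fell in MUTZ-1, and 42.1% rose and 42.3% fell in SKM-1. The MUTZ-1 calls of PGLS, TKT and TALDO1 were lost with library totals. PGD, an NADPH-yielding enzyme of the oxidative arm, averaged 194 ± 4.9 FPKM in SKM-1 shNUDT21 against 101 ± 1.87 FPKM in SKM-1 control cells. It averaged 154 ± 3.69 FPKM in MUTZ-1 shNUDT21 against 190 ± 1.43 FPKM in MUTZ-1 control cells. PGD rose 2.03-fold in SKM-1 (1.02 ± 0.024; edgeR adjusted p = 1.46e-101) and fell 1.27-fold in MUTZ-1 (−0.35 ± 0.023; adjusted p = 9.75e-33). PGLS, the lactonase of that arm, was called lower in MUTZ-1 alone, 1.13-fold; that call was also lost with DESeq2 (adjusted p = 0.0509), without control library 3 (−0.13) and without shNUDT21 library 1 (−0.16) or 3 (−0.12), while in SKM-1 library totals made it called lower at −0.17 log2 units.

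In the non-oxidative arm, RPIA, which isomerises ribulose 5-phosphate to ribose 5-phosphate, had 31.6, 29.2 and 33.6 FPKM in MUTZ-1 shNUDT21 libraries, against 47.3, 49.9 and 47.2 FPKM in MUTZ-1 control libraries. Its SKM-1 levels were 27.5, 29.1 and 26.5 FPKM with shNUDT21 and 30.6, 32.3 and 30.8 FPKM in control libraries. RPIA fell 1.58-fold in MUTZ-1 (−0.66 ± 0.045; edgeR adjusted p = 3.37e-32), and it was the single member at least 1.5-fold lower there. In SKM-1 it was not called (−0.09, 95% interval −0.19 to 0.00), although the groups did not overlap and library totals gave a called −0.17. It was also called lower in SKM-1 without SKM-1 shNUDT21 library 2 (−0.15), without any 1 of the 6 MUTZ-1 libraries and with the SKM-1 groups fitted alone (each −0.12). Each of these settings also shifted the median SKM-1 effect of all genes by −0.02. TALDO1, transaldolase, averaged 335 ± 7.84 FPKM in SKM-1 shNUDT21 against 254 ± 1.53 FPKM in SKM-1 control cells and rose 1.39-fold. RPE, the epimerase that makes xylulose 5-phosphate, rose 1.27-fold in SKM-1 and fell 1.16-fold in MUTZ-1; on the opposite strand, another gene covers 23.8% of its exonic bases. TKT, transketolase, fell 1.11-fold in SKM-1. In MUTZ-1 the falls of TALDO1 (−0.09) and TKT (−0.07) were not called with library totals, and their groups overlapped. The TKT call was lost as well with RLE scaling, with DESeq2 (adjusted p = 0.115), without any 1 of the 6 MUTZ-1 libraries (−0.07 to −0.02) and without SKM-1 shNUDT21 library 1 or 2 (each −0.05). Without SKM-1 shNUDT21 library 1 or 2, the median MUTZ-1 effect of all genes shifted by 0.03. The TALDO1 call was lost without MUTZ-1 control library 3 (−0.04) and without MUTZ-1 shNUDT21 library 1 (−0.07) or 3 (−0.06).

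**Figure D4:**
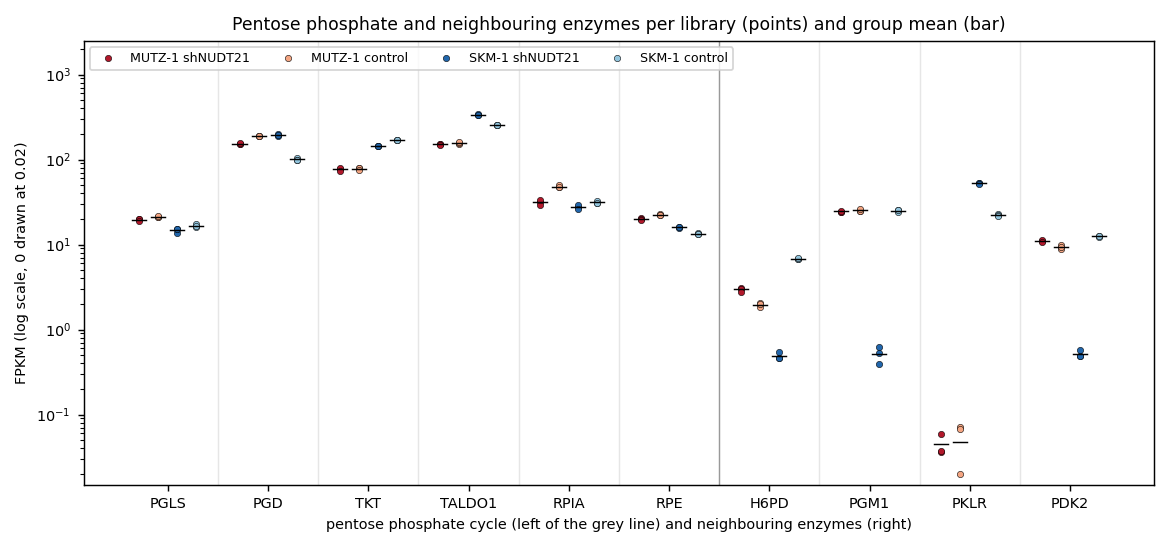
FPKM (log axis; a value of 0 is drawn at 0.02) of 6 pentose phosphate enzymes (left of the grey line) and 4 neighbouring enzymes (right) in every library, with bars for group means; the 4 on the right are not among the members. PGD is higher in SKM-1 shNUDT21 than in SKM-1 control libraries, and PGM1, H6PD and PDK2 fall below 1 FPKM in SKM-1 shNUDT21 libraries.

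The effect of the knockdown differed between the lines for 27 of 34 members, by the interaction term of the same fit. It was more positive in MUTZ-1 for 13 members and more negative for 14, against 36.4% and 35.6% of all genes tested (72.0% in either direction). At 1.5-fold or more, 9 were more positive and 6 more negative, against 26.8% and 21.8% of all genes tested (48.6% in either direction). Calls in each line show how: 6 members (SLC2A1, SLC16A1, ENO1, PGD, TALDO1 and RPE) were lower in MUTZ-1 and higher in SKM-1, and 4 (ALDOC, ENO2, ENO3 and PDK3) were higher in MUTZ-1 and lower in SKM-1. A further 10 were lower in both lines: HK2, GPI, TPI1, GAPDH, PGK1, PGAM1, PKM, LDHA, LDHB and TKT. Of these 10, the MUTZ-1 calls of GAPDH, LDHB and TKT were lost with library totals and when single libraries, named above, were left out. Of the 6 lower in MUTZ-1 and higher in SKM-1, the MUTZ-1 call of SLC16A1 was lost when 1 library was left out. That of TALDO1 was lost with library totals and when single libraries, named above, were left out. PFKFB3 and ALDOA were called in neither. The interaction for HK1 was −1.92 ± 0.044 log2 units, for PGK1 1.16 ± 0.029 and for PKM 0.73 ± 0.025. These interactions contain the SKM-1 values that the rule cites and are a description. Library totals shifted the median interaction of all genes by 0.13 log2 units, enough to turn the sign of the small interactions of GPI and PGAM1 (both −0.12 with TMM). Leaving out a MUTZ-1 library, or SKM-1 shNUDT21 library 1 or 2, shifted that median by 0.04 to 0.05. The interaction of GPI was lost without MUTZ-1 control library 2 or shNUDT21 library 1 (each −0.07) or 3 (−0.06), that of PGAM1 without MUTZ-1 control library 1 or 2, any MUTZ-1 shNUDT21 library or SKM-1 shNUDT21 library 1 or 2 (−0.08 to −0.05), and that of TKT without SKM-1 control library 1 or 3 or shNUDT21 library 3 (0.06 to 0.07). The interaction of SLC2A3 was lost with library totals (−0.67). It was also lost without MUTZ-1 control library 2 (−0.73) or 3 (−0.47), MUTZ-1 shNUDT21 library 1 (−0.68) or 3 (−0.69), or SKM-1 shNUDT21 library 1 (−0.72).

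Control cells of the lines already differed in the leading isozyme of the hexokinase, phosphofructokinase and PFKFB families. In the other families the same gene led in both. ENO1 held 99.7% of enolase FPKM in MUTZ-1 control and 95.3% in SKM-1 control cells. The rule that chose the members cites isozyme choice by line, so this comparison of members is a description. In MUTZ-1 control against SKM-1 control cells, 16 of 34 members were higher and 17 lower, against 41.4% and 48.8% of all genes tested (90.1% in either direction). At 1.5-fold or more, 7 were higher and 11 lower, against 26.3% and 36.5% (62.8% in either direction). This comparison shares its libraries with both knockdown effects. The largest difference among members was that of ENO2, at 0.135 ± 0.0575 FPKM in MUTZ-1 control and 23.4 ± 0.468 FPKM in SKM-1 control cells (edgeR log2 fold change −7.26 ± 0.149). SLC2A3 differed by −6.64 ± 0.115, and PFKFB4 by −3.13 ± 0.07 log2 units, with 1.57 ± 0.11 FPKM in MUTZ-1 control and 15.1 ± 0.669 FPKM in SKM-1 control cells. PFKP was 6.06-fold higher and HK1 4.08-fold lower in MUTZ-1 control than in SKM-1 control cells. Apart from PFKP and SLC16A3, the members at least 1.5-fold higher in MUTZ-1 control cells were GAPDH (1.58-fold), PKM (1.59-fold), PGD (2.06-fold), RPIA (1.69-fold) and RPE (1.85-fold). LDHB was the single member not called, at 705 ± 8.14 FPKM in MUTZ-1 control and 788 ± 4.12 FPKM in SKM-1 control cells; the FPKM groups did not overlap and library totals, which shift the median of all genes by −0.14 here, made it called at −0.16. LDHB was also called lower with RLE (−0.09), DESeq2 (−0.09), the 2 control groups alone (−0.05) and with any 1 MUTZ-1 library or SKM-1 shNUDT21 library 1 or 2 left out (−0.08 to −0.07). Leaving out 1 of those libraries shifted the median of all genes by −0.06 to −0.04, and RLE by −0.06. The calls of TPI1 and PDK3 were lost with library totals. That of PDK3 was lost too with RLE, with DESeq2, with the 2 control groups alone, and without any 1 of 10 libraries (0.05 to 0.11), all but SKM-1 control library 2 and SKM-1 shNUDT21 library 3.

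Members were also set beside the genes of their own chromosome. PGK1 and PDK3 lie on chromosome X, and in SKM-1 the median log2 fold change of the other genes tested on that chromosome was −0.45. It was −0.29 for the other genes on chromosome 12 with PFKM, and 0.49 on chromosome 21 with PFKL. In MUTZ-1 the chromosome medians lay between −0.02 and 0.03. All 5 members on chromosome 1 (SLC2A1, SLC16A1, PFKFB2, ENO1 and PGD) were higher in SKM-1 with shNUDT21, where 47.8% of the genes tested on that chromosome were higher and its median was 0.15. Of the 6 members on chromosome 12, 5 were lower (PFKM, TPI1, GAPDH, ENO2 and LDHB) and SLC2A3 higher, where 55.7% of the genes on that chromosome were lower. Relative to the median of its chromosome, PGK1 stood at −0.87, PDK3 at −1.90, PFKM at −1.39, PKM at −0.90, HK1 at 2.00, PFKP at 1.46 and PGD at 0.87. GAPDH changed sign on that scale, at 0.11. The part of these chromosome-wide shifts in the members' values was not tested.

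**Figure D5:**
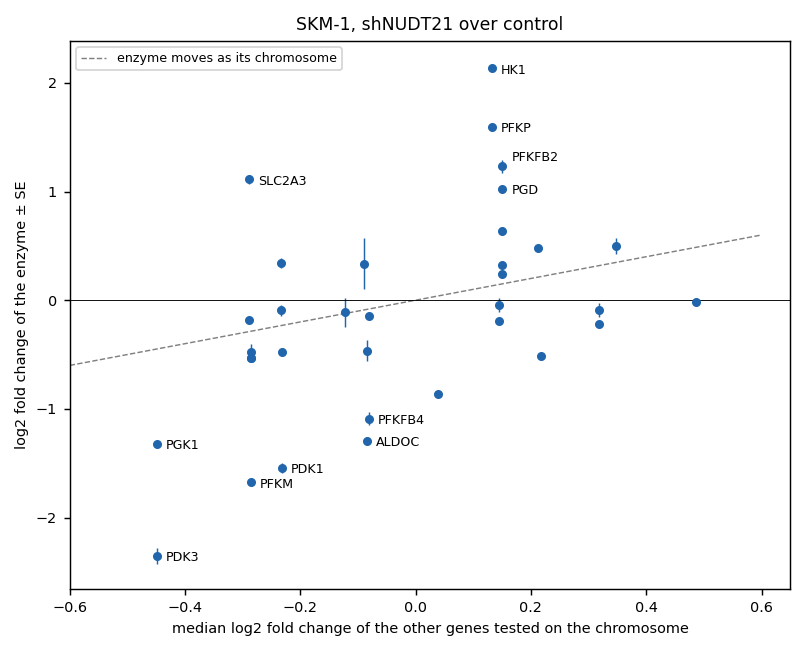
log2 fold change with its standard error of each member in SKM-1, shNUDT21 over control, against the median log2 fold change of the other genes tested on its chromosome; the dashed line marks equal values. HK1 lies 2.00 log2 units above the line and PDK3 at −1.90 relative to it.

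Other genes of the pathway, listed apart from the members, included larger changes in SKM-1. Of 58 listed genes 54 were in the table and 42 were tested; 12 rose and 26 fell in SKM-1, with a median of −0.56, and 10 rose and 15 fell in MUTZ-1, with a median of −0.04. Over all genes tested 42.1% rose and 42.3% fell in SKM-1, and 24.4% rose and 24.6% fell in MUTZ-1. PGM1, which links glycogen to glucose 6-phosphate, averaged 0.509 ± 0.115 FPKM in SKM-1 shNUDT21 against 25.0 ± 0.611 FPKM in SKM-1 control cells, 46.3-fold lower. H6PD, a hexose 6-phosphate dehydrogenase of the endoplasmic reticulum, averaged 0.489 ± 0.0459 FPKM in SKM-1 shNUDT21 against 6.8 ± 0.104 FPKM in SKM-1 control cells, 13.1-fold lower, and PDK2 was 22.8-fold lower. PKLR, whose red cell form is the pyruvate kinase of erythrocytes, averaged 52.4 ± 0.935 FPKM in SKM-1 shNUDT21 against 22.2 ± 0.502 FPKM in SKM-1 control cells, 2.49-fold higher, while PKM fell there. In MUTZ-1, PKLR stayed below 0.1 FPKM in every library. Among called genes with a group mean of at least 5 FPKM, the changes of largest size in MUTZ-1 were those of the fructose transporter SLC2A5, at 18 ± 0.105 FPKM with shNUDT21 and 30.5 ± 0.546 FPKM in control cells, of PDHX (1.27-fold lower), a structural part of pyruvate dehydrogenase, and of pyruvate carboxylase PC (1.24-fold higher). By the same rule SLC2A5, LDHD and PKLR differed most between MUTZ-1 control and SKM-1 control cells, with SLC2A5 at 30.5 FPKM in MUTZ-1 control and 0.0371 FPKM in SKM-1 control cells.

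Of 20 regulators of these genes, all tested, 9 rose and 11 fell in SKM-1, and 6 rose and 4 fell in MUTZ-1; of all genes tested, 84.4% were called in SKM-1 and 49.0% in MUTZ-1. MYC, which binds many glycolytic promoters, averaged 103 ± 1.21 FPKM in SKM-1 shNUDT21 against 499 ± 9.23 FPKM in SKM-1 control cells, 4.6-fold lower. HIF1A, the oxygen-regulated factor of the glycolytic hypoxia response, averaged 13.4 ± 0.343 FPKM in SKM-1 shNUDT21 against 23 ± 0.895 FPKM in SKM-1 control cells, 1.63-fold lower, and its relative EPAS1 was 4.77-fold higher at 5.58 ± 0.11 FPKM in SKM-1 shNUDT21 against 1.24 ± 0.0893 FPKM in SKM-1 control cells. PRKAA2, a catalytic subunit of AMP-activated kinase, was 38.5-fold lower in SKM-1 with shNUDT21. In MUTZ-1, MYC was 91.6 ± 1.51 FPKM with shNUDT21 and 85.1 ± 1.81 FPKM in control cells (log2 fold change 0.06), and HIF1A was not called. TXNIP and ARRDC4, arrestin-like genes that restrain glucose uptake, rose 1.6-fold and 1.68-fold in MUTZ-1, and MLX, the partner of the glucose-sensing MondoA factor, fell 1.26-fold. By the 5 FPKM rule, the regulators that differed most between MUTZ-1 control and SKM-1 control cells were PRKAA2, MYC and TXNIP, each lower in MUTZ-1 control cells.

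Hypoxia-inducible genes outside glycolysis mostly fell in SKM-1. Of 18 listed 16 were tested, and 13 fell and 2 rose with shNUDT21, where 42.3% of all genes tested fell and 42.1% rose. Their median log2 fold change was −1.17, against −0.13 for the members and 0.00 for all genes tested. The difference between these medians was not tested. INSIG2 was 4.88-fold, the mitophagy receptor BNIP3 4.17-fold and ANKRD37 4.06-fold lower in SKM-1 with shNUDT21. In MUTZ-1, 4 rose and 3 fell, where 24.4% of all genes tested rose and 24.6% fell. Among called genes with a group mean of at least 5 FPKM, the changes of largest size there were those of MXI1 (1.42-fold higher), DDIT4 (1.4-fold higher) and BNIP3L (1.19-fold higher); P4HA2, below that level, was 1.29-fold higher. By the same rule DDIT4, P4HA1 and P4HA2 differed most between the control cells and were lower in MUTZ-1 control than in SKM-1 control cells, by 7.66-fold, 6.5-fold and 4.36-fold. Below that level, NDRG1 averaged 0.0224 FPKM in MUTZ-1 control and 3.54 FPKM in SKM-1 control cells, and EGLN3 was counted at 0 in MUTZ-1 control and averaged 3.86 FPKM in SKM-1 control cells.

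The promoters of 4 members, chosen after their values were seen, are shown, because hypoxia-inducible factors and MYC recognise short motifs that can be looked for there. Each line gives the 250 bases upstream of a RefSeq start of the gene (GRCh38.p14), 5′ to 3′ on the strand of the gene. For PFKP the window lies inside the gene, whose outermost RefSeq start is at 3067548. Capitals mark the letters ACGTG or GCGTG (core of the hypoxia response element) read on either strand, and the E-box CACGTG contains ACGTG. The regions are chrX:78103998-78104247 (plus strand) for PGK1, chr11:18394313-18394562 (plus strand) for LDHA, chr17:28576896-28577145 (minus strand) for ALDOC and chr10:3067720-3067969 (plus strand) for PFKP.
PGK1: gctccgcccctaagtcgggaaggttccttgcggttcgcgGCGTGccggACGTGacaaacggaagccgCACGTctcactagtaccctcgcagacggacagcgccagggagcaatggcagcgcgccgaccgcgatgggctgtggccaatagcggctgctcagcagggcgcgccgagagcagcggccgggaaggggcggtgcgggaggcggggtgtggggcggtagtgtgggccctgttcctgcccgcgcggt
LDHA: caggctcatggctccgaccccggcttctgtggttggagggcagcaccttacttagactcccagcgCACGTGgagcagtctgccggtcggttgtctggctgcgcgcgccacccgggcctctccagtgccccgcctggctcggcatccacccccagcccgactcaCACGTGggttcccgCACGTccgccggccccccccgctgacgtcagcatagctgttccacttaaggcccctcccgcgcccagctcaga
ALDOC: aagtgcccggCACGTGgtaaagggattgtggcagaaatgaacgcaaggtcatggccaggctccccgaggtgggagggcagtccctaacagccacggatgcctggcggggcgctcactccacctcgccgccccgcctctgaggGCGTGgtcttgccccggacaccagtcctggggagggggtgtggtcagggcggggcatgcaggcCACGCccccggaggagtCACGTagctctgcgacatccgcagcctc
PFKP: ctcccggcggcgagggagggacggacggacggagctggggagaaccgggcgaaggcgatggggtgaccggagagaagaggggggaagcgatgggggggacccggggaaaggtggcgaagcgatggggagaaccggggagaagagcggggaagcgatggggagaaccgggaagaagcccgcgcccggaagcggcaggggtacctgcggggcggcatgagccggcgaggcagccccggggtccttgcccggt
PGK1 has the letters at 3 places in its distal part. LDHA and ALDOC hold CACGTG, and the PFKP window, which lies inside the gene, holds none of these letters. The 4 promoters do not stand for the other members. The windows of PFKM, PDK1 and PKM, which were lower in SKM-1 with shNUDT21, hold none of the letters. PGD, which rose there, holds ACGTG once and GCGTG at 2 places, and ENO1, which rose as well, holds GCGTG at 2 places. The windows of PFKM and PKM, and of some other members, also lie inside the gene as RefSeq outlines it. RefSeq promoters were found for 32 of the 35 members, and 53.1% of those hold ACGTG or GCGTG, against 56.4% of 10975 promoters of genes tested. ACGTG alone was in 34.4% of members' promoters and in 22.8% of promoters of genes tested, GCGTG in 34.4% and 44.8%, and CACGTG in 9.38% and 8.67%. Of 17 members with ACGTG or GCGTG, 3 rose and 10 fell in SKM-1; of 14 tested members with neither, 5 rose and 7 fell. The letters were searched in this window only, the counts do not show which start the cells used, and a match is not evidence of binding.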

How the data were processed

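RNA was extracted with TRIzol and made into libraries with a TruSeq Stranded mRNA kit, per the labels' protocols. The tools used, in no stated order, were fastp, HISAT2 and HTSeq with GRCh38, per the submitters' processing notes. Not given in the sources used here are versions, annotation, strand setting and how reads that map to several places were treated. The authors deposited raw counts per gene and FPKM, which per the file headers and values follow the counts, library totals and 1 length per gene. Libraries held 15843012 to 18426619 counts.

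Of 17518 genes, 13625 passed edgeR's filterByExpr. Counts were scaled by TMM and fitted once over all 12 libraries with edgeR 4.0.16 in R 4.3.3 (quasi-likelihood, robust, 8 residual degrees of freedom); p-values were adjusted by Benjamini-Hochberg over all genes tested. Isozyme shares and step sums used FPKM with exact two-sided permutation tests. Intervals are 95% from the standard error. The fit was tested on simulated data. Alternatives were library totals, RLE, no filter, DESeq2 1.42.0, limma 3.58.1 on log2(FPKM + 1) and log2(FPKM + 0.1) computed from the deposited FPKM, the 2 compared groups only, a replicate block, leaving out each library, and a fold of at least 1.5.

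Members and lists were chosen with earlier results of these data known. Values per library are given for HK1, PGK1, PKM, the leading isozyme of each family and the 5 members with the largest called change per comparison at a group mean of at least 5 FPKM; other members described so were chosen after their values were seen. Other lists are represented by their 3 largest called changes at that level, with HIF1A and MYC; some genes that this rule names are not reported here; PKLR was added after its values were seen. Labels give the groups the same replicate numbers, but do not say whether a number marks a shared culture or day. The samples were therefore not treated as paired.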

Additional observations from a re-analysis of the deposited data

Results flagged for a closer look

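The knockdown effect differed between the lines, by the interaction term of the edgeR fit (adjusted p below 0.05), for 27 members. This count includes HK1, PGK1 and PKM, whose SKM-1 values the rule that chose the members cites, so their differences are a description. All values are log2 fold changes of shNUDT21 over control in MUTZ-1 minus that in SKM-1. Among the carriers, SLC2A1 differed by −1.06, SLC2A3 by −0.80 and SLC16A1 by −0.43. The SLC2A3 difference was not called with library totals (−0.67) or when certain single libraries were left out. In the upper part of glycolysis HK1 differed by −1.92, PFKP by −1.62, PFKFB2 by −1.41, PFKL by −0.29 and GPI by −0.12, while PFKM differed by 1.68, ALDOC by 1.53, PFKFB4 by 1.24 and TPI1 by 0.17. In the lower part ENO2 differed by 3.89, PGK1 by 1.16, ENO3 by 0.92, PKM by 0.73 and GAPDH by 0.12, and ENO1 by −0.38 and PGAM1 by −0.12. Among the genes of pyruvate fate PDK3 differed by 2.53, PDK1 by 1.5 and LDHB by 0.45. In the pentose phosphate pathway PGD differed by −1.37, TALDO1 by −0.57, RPIA by −0.57, RPE by −0.56 and TKT by 0.07. HK2, LDHA, SLC16A3, PFKFB3, ALDOA, BPGM and PGLS were not called. Of all genes tested, 72.0% were called in this comparison.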

How the results depend on the processing

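No member called in SKM-1 lost its call or changed direction under another scaling, filter, tool or left-out library; PFKFB3, which was not called, ranged from −0.1258 to 0.0164 with 1 library left out. With a fold of at least 1.5 the counts of higher and lower members were 1 and 1 in MUTZ-1, 6 and 7 in SKM-1, 9 and 6 for the difference of effects, and 7 and 11 between the controls. Leaving out 1 library gave 7 higher and 15 to 19 lower members in MUTZ-1, 11 to 12 and 17 to 18 in SKM-1, 12 to 14 and 11 to 14 for the difference, and 15 to 16 and 17 to 18 between the controls. The scaling was redone each time. It shifted the median of all genes by −0.0002 to 0.0311 in MUTZ-1 and −0.024 to 0.0032 in SKM-1. The shift was −0.0033 to 0.0545 for the difference and −0.0552 to 0.0012 between the controls. The part of these shifts in single calls was not tested. Signs turned for small effects, with library totals, limma on log2(FPKM + 1) and limma on log2(FPKM + 0.1) in that order; library totals shift the median of all genes by 0.05 in MUTZ-1, −0.08 in SKM-1, 0.13 for the difference and −0.14 between the controls. In MUTZ-1, PFKP came to 0.0231, 0.023 and 0.0233, and PDK1 to 0.0032, 0.002 and 0.0021. For the difference of effects, PFKFB3 came to 0.1075, 0.096 and 0.1098, GPI to 0.0045, 0.0065 and 0.0048, PGAM1 to 0.0105, 0.0105 and 0.0109, BPGM to 0.0143, 0.0224 and 0.0156, LDHA to 0.11, 0.1099 and 0.11, and PGLS to 0.0468, 0.0444 and 0.0486; ALDOA came to 0.0131 with limma on log2(FPKM + 1), and LDHA to 0.0024 with RLE and 0.0023 with DESeq2. Between the controls, PDK3 came to −0.0163, −0.0126 and −0.0153. With CPM in place of FPKM the SKM-1 log2 ratio of the summed PFKFB enzymes was 0.01907 in place of −0.3317. CPM carry the TMM scaling and are not divided by gene length, which is 11697 bases for PFKFB2, 5129 for PFKFB3 and 5700 for PFKFB4. Other than the scaling shifts and gene lengths given, the cause of these turns was not tested. With 1 library left out, signs also turned for PFKP (−0.0249 to 0.012), PFKFB3 (−0.0824 to 0.01) and PDK1 (−0.0714 to 0.0324) in MUTZ-1, and for the differences of SLC16A3 (−0.0268 to 0.4387), PFKFB3 (−0.0539 to 0.0881), ALDOA (−0.2341 to 0.0199), LDHA (−0.0285 to 0.0397) and PGLS (−0.1157 to 0.0032). They turned as well for the SLC16A1 share in SKM-1 (−0.1655 to 0.1032 percentage points) and for the summed PFKFB (−0.02072 to 0.03651) and SLC16A (−0.02255 to 0.003157) levels in MUTZ-1 and TPI1 between the controls (−0.0173 to 0.01762), as log2 ratios. Deviations of libraries with the same number correlated at −0.0709 to 0.0229, none over 0.1; with a replicate block the difference of effects had 12 more positive members in place of 13, as TKT came to an adjusted p of 0.0542 in edgeR, and no other member's call changed in the MUTZ-1 effect, the SKM-1 effect or their difference; no block was fitted between the controls. Depth limits SLC2A3 and ENO2 in MUTZ-1 control cells, with 33 and 17 reads in 3 libraries, and HK3 in all groups.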
